A study of Arabidopsis thaliana with 12 samples.

Results

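The comparison described here is that of lug-3 mutant flowers with wild type flowers, which uses 6 of the 12 Affymetrix ATH1 arrays of the series. The 6 arrays were those labelled as flowers at growth stage 6.90, 3 of the lug-3 mutant and 3 of the wild type, and the 6 other arrays, of rosette leaves at stage 3.90 from the same genotypes, are used only for leaf values and for the estimate of spread. Both flower groups have the Ler-0 (Landsberg erecta) background, which carries the erecta mutation, so the wild type controls carry it as well. Each array stands for RNA from a pool of 20 plants grown at 20 °C under constant light after 4 days of cold for the seeds. The labels do not state that the 3 pools of a group came from separate cultures, and p-values therefore reflect no more than the variation among these arrays, part of which may be technical. The arrays are called wild type 1 to 3 and lug-3 1 to 3 below, after the numbers in their labels.

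LEUNIG (LUG) makes a transcriptional corepressor and is mutated in lug-3. The protein is brought to its target genes by the adaptor SEUSS (SEU) and by DNA-binding proteins. It is known for keeping AGAMOUS, the gene for stamen and carpel identity, out of sepals and petals, and for roles in the gynoecium, the ovules and petal shape. In the anther, the tapetum is the cell layer that feeds the developing pollen and supplies its coat, and mature pollen stores transcripts for wall enzymes that serve the growth of the pollen tube. LUG, its homolog LUH and AGAMOUS have no probe set named in the annotation used, so their transcripts were not analysed here. SEU had signals of 130, 135 and 136 in wild type flowers and 145, 141 and 133 in lug-3 flowers, with overlapping groups and a log2 change of 0.06 (SE 0.094, adjusted p = 0.754).

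The extraction text of the flower samples names rosette leaves, whereas their titles and sources name flowers. The anther gene ATA27 had a mean signal of 1056 in wild type flowers and 2.22 in wild type leaves, and BAN, a gene of the young seed coat, 295 and 2.12. The tested light-harvesting and photosystem genes had summed signals of 12481 to 15075 on the wild type flower arrays and 31158 to 35917 on the wild type leaf arrays. None of the floral organ identity genes on the list was tested, so whorl identity was not checked. Spearman's rho across probe sets was 0.972 to 0.985 among wild type flowers, 0.971 to 0.983 among lug-3 flowers and 0.913 to 0.947 between the groups. The ratio of 3' to 5' GAPDH control signal, a measure of RNA quality, was 1.63, 1.78 and 2.07 on wild type 1 to 3 and 1.65, 2.02 and 3.10 on lug-3 1 to 3.

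Of 17877 tested probe sets, limma called 2150 between the flower groups, 12% of those tested, with 943 higher (5.27%) and 1207 lower (6.75%) in lug-3. Counts of called list members below are to be read beside these shares. Among the 9902 genes with a named, tested probe set, 479 were higher and 650 lower, 103 and 366 of them by more than 2-fold. The mean signal in wild type leaves lay below 16.4, the floor used to filter low values, for 342 of the 650 lower genes (52.6%), 46 of the 479 higher genes and 1567 of all 9902 genes (15.8%). Of the 366 genes that fell by more than 2-fold, 265 (72.4%) lay below that floor in wild type leaves. These shares are a description only, since a gene below the floor in leaves passes the filter through flower arrays where it is high, and one that fell could pass through the wild type flower arrays alone. With the floor required on at least 6 arrays, 966 probe sets were called lower and 941 higher. The call counts depended on single arrays: 1151 probe sets were called without wild type 1, 1199 without wild type 2, 1312 without lug-3 1 and 1231 without lug-3 2. The count was less changed without wild type 3 (1872) or without lug-3 3 (1768).

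The arrays within a group also differed in a shared way. Of the 650 lower genes, 427 had their lowest wild type signal on wild type 3 and 368 their highest lug-3 signal on lug-3 3. Of the 479 higher genes, 233 had their highest wild type signal on wild type 3 and 224 their lowest lug-3 signal on lug-3 3. These are the arrays of highest GAPDH ratio in each group, and the part of RNA quality in this spread was not tested. With the log2 of that ratio as a covariate, 2280 probe sets were called, 1888 of them among the original 2150.

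**Figure D1:**
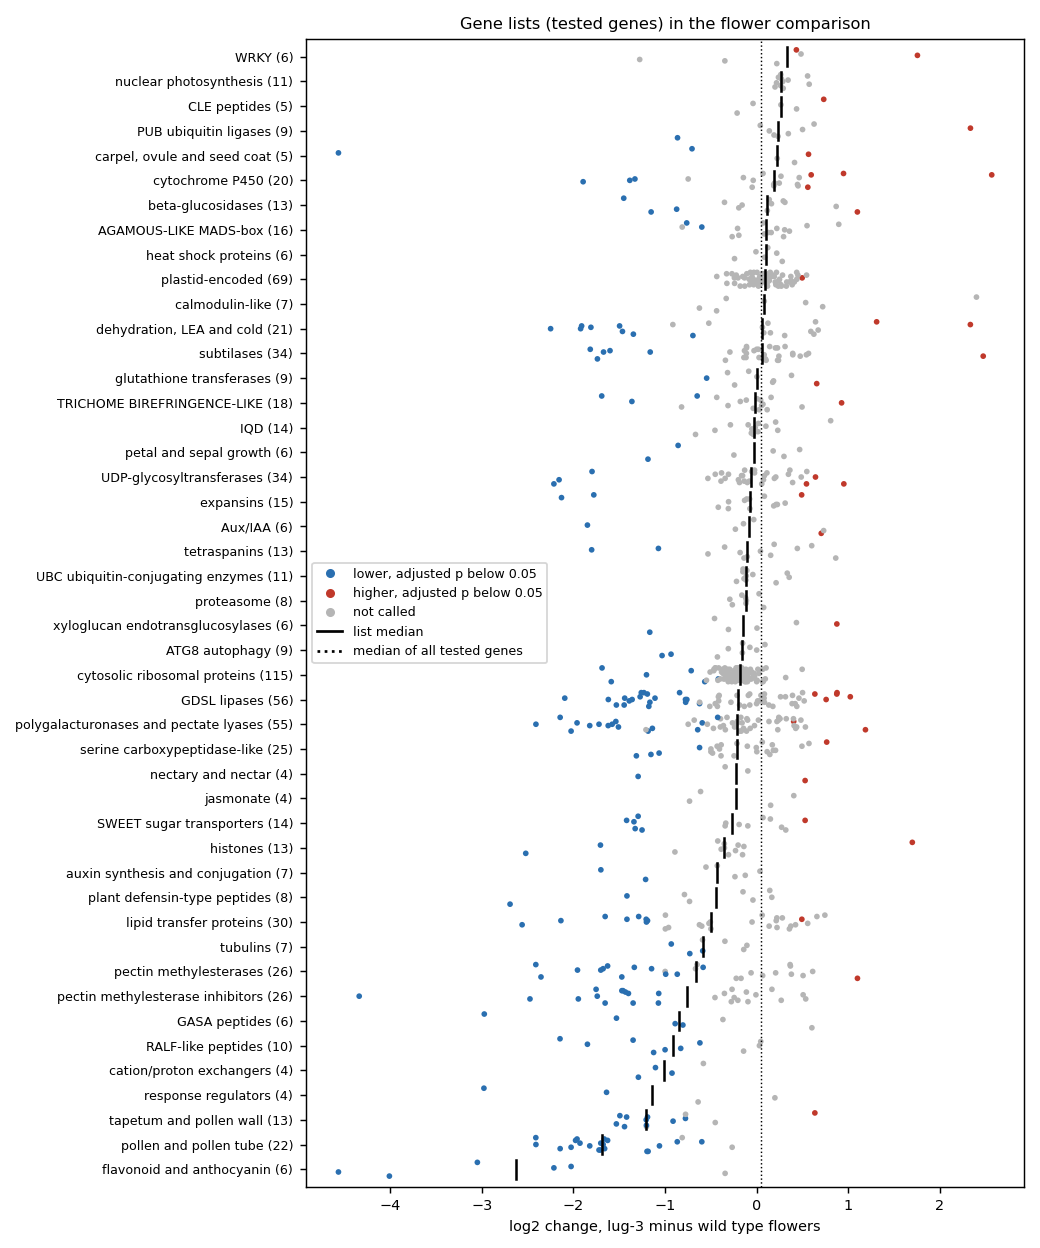
Log2 change from wild type to lug-3 flowers of every tested gene in the gene lists with at least 4 tested genes, with the number tested in parentheses. Blue points were lower and red points higher at an adjusted p below 0.05, grey points were not called, black bars mark list medians and the dotted line the median of all 9902 genes (0.05); the pigment, pollen and tapetum lists have the lowest medians (-2.63, -1.69 and -1.20).

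Genes of the tapetum and the pollen wall were lower in lug-3 flowers. The list holds 49 genes, of which 16 are named on the array and 13 passed the filter. Of these 9 fell (69.2%), 1 rose (7.69%) and 3 were not called, where 6.75% of all tested probe sets were lower and 5.27% higher. In wild type leaves 11 of the 13 had mean signals below 16.4. The limit given above, that such genes pass the filter through flower arrays, therefore holds for this comparison of shares. The median log2 change was -1.20, beside 0.05 over all tested genes. The summed signal of the 13 genes was 5603 to 6915 in wild type and 2546 to 2836 in lug-3 flowers, and at most 248 on a wild type leaf array. ATA27, an anther beta-glucosidase gene, had signals of 895, 928 and 1347 in wild type and 294, 374 and 436 in lug-3 flowers. All 3 lug-3 values lay below all wild type values, and the log2 change was -1.49 (SE 0.183, adjusted p = 0.000327). In bulk flowers, fewer tapetum or pollen cells and less RNA per cell cannot be told apart.

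AT1G75920, which encodes an extracellular lipase of the pollen coat, had signals of 184, 151 and 197 in wild type and 54.0, 59.9 and 53.6 in lug-3 flowers (log2 change -1.53, adjusted p = 0.000372). SHT, which encodes the spermidine hydroxycinnamoyl transferase that makes pollen coat conjugates, fell by 1.44, and SWEET8, a sugar exporter needed for the pollen wall, fell by 1.42. The lipid transfer protein gene AT1G66850 had signals of 1804, 1609 and 2014 in wild type and 660, 826 and 884 in lug-3 flowers (log2 change -1.19, adjusted p = 0.00671). These groups did not overlap, which held for 12 of the 13 list genes and for 36.7% of all tested probe sets.

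The rest of the tapetum list changed less firmly. AT5G07230, the tapetum marker A9, was at 245, 258 and 498 in wild type and at 122.6, 130.1 and 145.8 in lug-3 flowers, with the widest spread on the wild type side. Its fall of 1.21 on the log2 scale lost its call without wild type 3 or without any 1 of the lug-3 arrays (adjusted p up to 0.0883). AT5G62080, a lipid transfer family gene, fell by 1.20 and lost its call without any 1 array other than wild type 1 (adjusted p up to 0.0992). EMS1, the receptor kinase that specifies the tapetum, fell by 0.91 from 220 ± 16.9 to 113 ± 9.41 (SD, n = 3), a call lost without any 1 of the 6 arrays (adjusted p up to 0.136).

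The extracellular lipase genes around AT1G75920 did not move alike. AT1G75900 had signals of 1202, 1104 and 759 in wild type and 647, 574 and 529 in lug-3 flowers and fell by 0.78. AT1G75890 was the 1 gene of the list that rose, from 27.8, 23.9 and 16.7 to 40.5, 45.1 and 32.9 (log2 change 0.63, adjusted p = 0.0481), and AT1G75880 was not called (-0.45, adjusted p = 0.160). The other list members not called, which lie outside this lipase cluster, were AT1G33430 (-1.20, adjusted p = 0.0586) and AT3G23770 (-0.78, adjusted p = 0.126). The calls of AT1G75900 and AT1G75890 were lost without 5 of the arrays one at a time (adjusted p up to 0.130 for AT1G75900, without wild type 1, and 0.167 for AT1G75890, without lug-3 2); AT1G75900 kept its call without wild type 3 and AT1G75890 without lug-3 3. Without lug-3 2 or lug-3 3, or with a pseudocount of 1, the 9 falls of the list became 5.

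Pollen and pollen tube genes fell together in lug-3 flowers. The list holds 71 genes, of which 25 are named on the array and 22 passed the filter. Of these 20 fell (90.9%), where 6.75% of all tested probe sets were lower. None rose, and all 22 changes were negative, with a median of -1.69. The median lug-3 signal of these genes was 29.2% of wild type, and that of the tapetum list 41.0%. The summed signal was 7140, 6388 and 5090 on wild type 1 to 3 and 1223, 1918 and 2303 on lug-3 1 to 3, and at most 275 on a wild type leaf array. The lug-3 sums were thus well above leaf and below every wild type flower array, and wild type 3 and lug-3 3 were the closest pair. When a signal above the floor was required on at least 6 of the 12 arrays, a filter that removes genes silent in leaves and low in lug-3 flowers, 12 falls were called.

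ANX2, a receptor kinase that keeps the growing pollen tube intact, had signals of 86.0, 104 and 64.7 in wild type and 10.1, 16.1 and 23.7 in lug-3 flowers (log2 change -1.93, SE 0.195, adjusted p = 8.94e-05). MGH3, a histone H3 of the sperm cells, was at 69.3, 89.4 and 58.5 in wild type and at 22.7, 18.2 and 9.94 in lug-3 flowers (log2 change -1.71, adjusted p = 0.00233). PLIM2a, an actin-bundling protein of pollen, was at 353, 313 and 261 against 41.3, 83.0 and 105.9 (log2 change -1.98, adjusted p = 0.00103). In each of these 3 genes the groups did not overlap, and unlike the other two MGH3 was lowest on lug-3 3. ACT12, a pollen actin, fell by 1.20.

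The 3 tested MADS-box genes of pollen maturation stood at the weak end of the list. AGL104 had signals of 26.1, 21.0 and 22.3 in wild type and 9.52, 13.1 and 15.3 in lug-3 flowers (log2 change -0.60, adjusted p = 0.0483), and lost its call without any 1 of the 6 arrays (adjusted p up to 0.171). AGL66 (-0.81, adjusted p = 0.139) and AGL65 (-0.27, adjusted p = 0.243) were the 2 members not called, AGL66 with groups that did not overlap and AGL65 with groups that did.

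**Figure D2:**
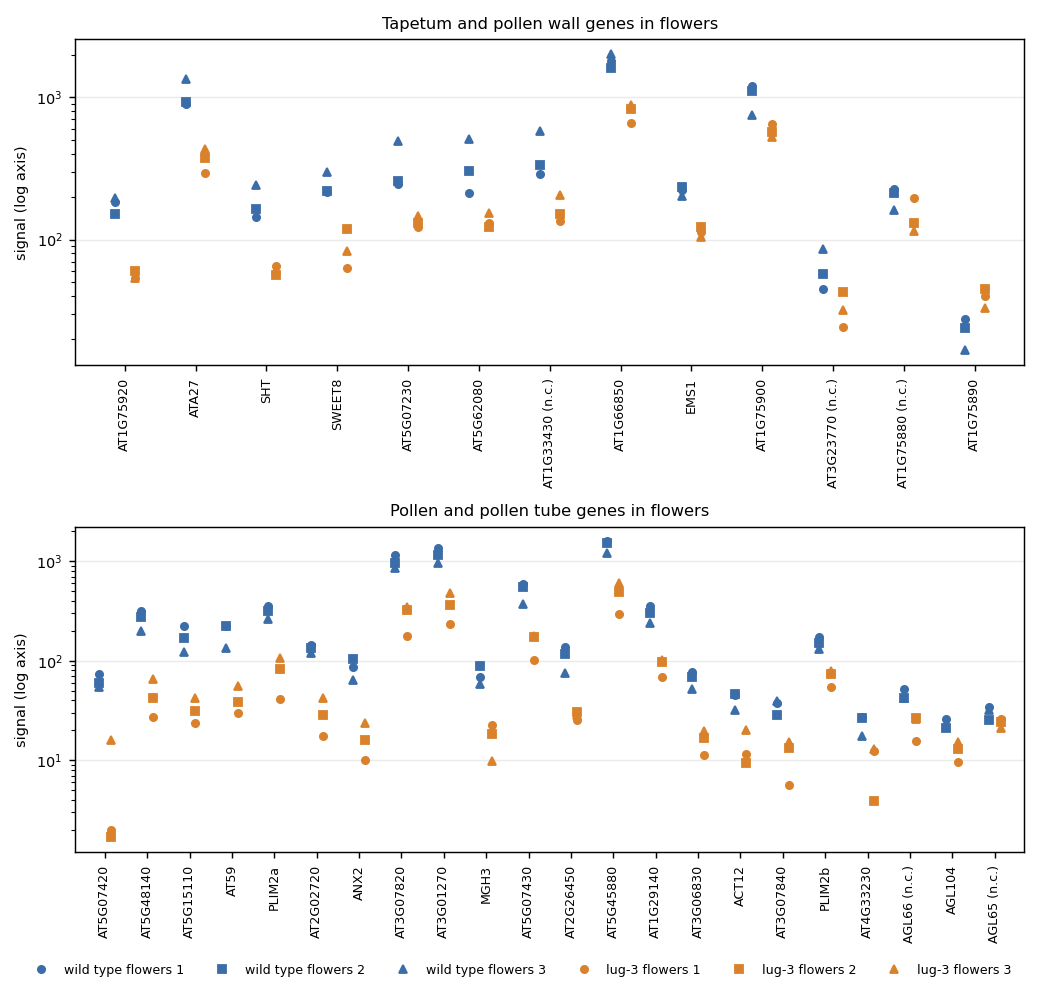
Signal (log axis) of the 13 tested tapetum and pollen wall genes and the 22 tested pollen and pollen tube genes on each flower array, wild type in blue and lug-3 in orange, with circles, squares and triangles for arrays 1, 2 and 3 and n.c. for genes not called. Lug-3 signals lie below wild type signals for all but AT1G75890, AT1G75880 and AGL65, and in the pollen list the lug-3 3 triangle is the highest lug-3 value for 18 of 22 genes.

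Pectin, the polymer of the primary wall that pollen tube tips are built from, is modified by methylesterases, their inhibitors, polygalacturonases and pectate lyases. Genes of all these families fell in lug-3 flowers. Of 26 tested pectin methylesterase genes 12 fell and 1 rose (median -0.66), of 26 inhibitor genes 13 fell and none rose (median -0.76), and of 55 polygalacturonase and pectate lyase genes 15 fell and 2 rose (median -0.21), where 6.75% of all probe sets were lower. Of the falling methylesterase genes 5, and of the falling polygalacturonase and pectate lyase genes 7, were also on the pollen list. Outside the pollen and tapetum lists 7 of 21 methylesterase and 8 of 48 polygalacturonase and pectate lyase genes fell, and none of the inhibitor genes was on those lists. The summed pollen list signal given above contains the shared genes, so it is not a separate measure beside them. The part of pollen content in the falls of these families was not tested. With a pseudocount of 1 the 13 inhibitor falls became 8, and with the filter on 6 arrays the 12 methylesterase falls became 7.

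AT4G15750, a gene of the inhibitor family, had signals of 1656, 1632 and 1457 in wild type and 50.6, 87.1 and 78.6 in lug-3 flowers (log2 change -4.34, SE 0.202, adjusted p = 3.59e-07). AT1G10770, another of that family, had 1168, 846 and 685 against 171, 283 and 342 (log2 change -1.75, adjusted p = 0.00171). Both were lower in every lug-3 pool than in any wild type pool, but the lug-3 signal of AT4G15750 was 4.56% of wild type and that of AT1G10770 29.5%. AT1G09370 and AT2G47340, also of that family, fell by 2.47 and 1.95.

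Among the methylesterase genes, AT5G07420 had signals of 73.6, 60.1 and 54.4 in wild type and 1.99, 1.68 and 15.8 in lug-3 flowers (log2 change -2.41, adjusted p = 0.000195). The lug-3 values were near the leaf level of 1.44 on 2 of 3 arrays. AT3G17060 fell by 2.35 and AT3G05610 fell by 1.96. AT5G07430 had 597, 547 and 368 against 102, 172 and 176 (log2 change -1.70). ATPMEPCRB was the 1 gene that rose, from 69.8, 91.3 and 113 to 271, 222 and 136 (log2 change 1.10, adjusted p = 0.0369), a call lost without wild type 1 or 2 or lug-3 1 or 2 (adjusted p up to 0.149). It also rose in leaves (log2 change 2.70).

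The polygalacturonase gene AT5G48140 had signals of 318, 278 and 201 in wild type and 27.5, 42.0 and 65.1 in lug-3 flowers (log2 change -2.41, adjusted p = 0.000118). The pectate lyase genes AT5G15110 and AT59 fell by 2.15 and 2.03, and AT2G02720 fell by 1.96. AT3G01270, another pectate lyase gene on the pollen list, went from 1359, 1163 and 962 to 235, 361 and 476 (log2 change -1.72). The polygalacturonase-like gene AT1G48100 went the other way, from 185, 197 and 161 to 412, 502 and 360 (log2 change 1.19, adjusted p = 0.000965), with no overlap of the groups. Without wild type 1 or lug-3 1 the 15 falls of that list became 10.

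Other wall-loosening genes changed in single members. EXPA8, an alpha-expansin gene, had signals of 332, 376 and 333 in wild type and 86.0, 76.8 and 58.4 in lug-3 flowers (log2 change -2.13, adjusted p = 0.00170). In leaves the same gene was higher in lug-3 (75.1 ± 51.8 to 195 ± 9.20, SD, n = 3; log2 change 1.48, adjusted p = 0.00933), and the difference between the tissues passed the test, as it did for 23% of all tested probe sets. EXPB5, a beta-expansin gene, fell by 1.78, and EXPA15 rose by 0.49, a call lost without any 1 of the 6 arrays (adjusted p up to 0.152). These were the calls among 15 expansin genes. Of 6 xyloglucan endotransglucosylase genes XTH16 fell by 1.17, a call lost without wild type 1 or lug-3 2 (adjusted p up to 0.0549), and XTH32 rose by 0.87, a call lost without any 1 array other than lug-3 3 (adjusted p up to 0.103), and which also rose in leaves (2.00).

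Lipid-handling families had many falling members. Of 56 tested GDSL lipase genes 19 fell (33.9%) and 5 rose (8.93%), with a median of -0.20. Of 30 lipid transfer protein genes 8 fell (26.7%) and 1 rose (3.33%), with a median of -0.50. Over all tested probe sets 6.75% were lower and 5.27% higher, and the median of all tested genes was 0.05. Outside the anther lists the falls numbered 17 of 52 and 5 of 27. AT1G73610, a GDSL lipase gene, went from 90.6, 74.5 and 51.3 to 7.12, 9.84 and 15.0 (log2 change -2.09, adjusted p = 0.000179), and AT5G03590 from 25.2, 23.3 and 17.9 to 1.13, 2.31 and 1.86 (log2 change -1.62). Both groups were apart in each gene, and AT5G03590 ended at its leaf level of 0.905. Without wild type 1, or with a pseudocount of 1, the 19 falls became 12, and without wild type 2 the 5 rises became 0.

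AT1G29660, also of the GDSL lipases, behaved differently in the 2 tissues. It fell in flowers, from 407, 357 and 241 to 131, 136 and 85.1 (log2 change -1.45, adjusted p = 0.00159), and rose in leaves, from 208 to 853 in the mean (log2 change 2.01, adjusted p = 0.000203). The lipid transfer protein gene AT5G09370 went from 309, 283 and 213 to 33.1, 40.1 and 42.1 (log2 change -2.56, adjusted p = 0.00142). AT5G38195 fell by 2.14, AT1G36150 fell by 1.42 and AT1G73560 by 1.65, the last a call lost without any 1 array other than lug-3 1 (adjusted p up to 0.118). Without wild type 3, lug-3 2 or lug-3 3 the 8 falls of the lipid transfer list became 4, and with a pseudocount of 1 they became 3.

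Of 10 tested RALF-like genes, a family of secreted peptides of which some act on receptor kinases of the ANXUR type, 7 fell and none rose (median -0.91). The share lower over all tested probe sets was 6.75%. RALFL25 had signals of 309, 241 and 150 in wild type and 30.2, 41.8 and 67.5 in lug-3 flowers (log2 change -2.15, adjusted p = 0.000284). RALFL26, RALFL31 and RALFL18 fell by 1.85, 1.35 and 1.13. RALFL26 and RALFL31 were also lower in lug-3 leaves (-1.14 and -1.75). Of 8 defensin-type genes 6 were not called, and the summed signal of the 8 overlapped between the groups (2252 to 3066 in wild type, 2342 to 2585 in lug-3); 2 fell, LCR24 (141, 129 and 76.5 to 10.3, 10.7 and 10.7; log2 change -2.69) and LCR72 (-1.42).

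Of the 6 tested GASA genes, a family of peptides induced by gibberellin, 4 fell (median -0.85), where 6.75% of all tested probe sets were lower. AT2G30810 went from 160, 142 and 90.2 to 3.72, 15.2 and 10.8 (log2 change -2.97, SE 0.279, adjusted p = 5.09e-05), and AT5G59845 from 216, 252 and 269 to 114, 159 and 139.5 (log2 change -0.81, adjusted p = 0.00235). The wild type and lug-3 values did not overlap in either. AT2G14900 fell by 1.53 and AT2G18420 by 0.89; the first lost its call without any 1 array other than wild type 3 (adjusted p up to 0.0883), the second without any 1 of the 6 (adjusted p up to 0.138). Without wild type 1, wild type 2 or any 1 lug-3 array 2 GASA falls were called. AT1G22690 (0.60, adjusted p = 0.0899) and AT2G39540 (-0.37, adjusted p = 0.327) were not called.

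The flavonoid pathway gives petals, seed coats and stressed tissue their pigments, and its late genes were among the lowest in lug-3 flowers. Of 6 tested genes 5 fell and none rose, with a median of -2.63, where 6.75% of all tested probe sets were lower. DFR, which commits the pathway to anthocyanins and tannins, had signals of 605, 518 and 293 in wild type and 39.98, 45.2 and 59.0 in lug-3 flowers (log2 change -3.05, SE 0.323). BAN, the anthocyanidin reductase of the young seed coat, was at 357, 295 and 233 against 3.79, 7.92 and 2.68 (log2 change -4.56), with all lug-3 signals below the floor of 16.4.

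The decorating enzymes of anthocyanin followed. AT4G14090, an anthocyanin glucosyltransferase gene, went from 343, 292 and 139 to 4.29, 1.94 and 22.3 (log2 change -4.01), and UF3GT, a glycosyltransferase gene of the same pathway, from 343, 278 and 142 to 44.0, 37.7 and 55.6 (log2 change -2.21). AT5MAT, which encodes an anthocyanin malonyltransferase, went from 117, 111 and 49.9 to 11.6, 12.4 and 23.8 (log2 change -2.03, adjusted p = 0.000896). Wild type 3 was the lowest wild type array for all 6 genes, yet above every lug-3 array. UGT78D2, which adds the first sugar to anthocyanidins and flavonols, was lower on all lug-3 arrays but not called (-0.34, adjusted p = 0.255). DFR, UF3GT and AT4G14090 were also lower in lug-3 leaves, by 2.06, 1.38 and 2.74.

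Genes of the gynoecium and of floral organ growth moved in both directions. Of 5 tested carpel, ovule and seed coat genes 2 fell and 1 rose. The falls were INO and BAN, and BAN (log2 change -4.56) was also counted above among the pigment genes. SPT, a transcription factor of the carpel margin, had signals of 60.6, 51.5 and 49.0 in wild type and 88.4, 83.5 and 77.4 in lug-3 flowers (log2 change 0.57, adjusted p = 0.0124). INO, a YABBY factor of the outer integument, was at 71.2, 61.8 and 75.4 against 41.6, 37.3 and 39.2 (log2 change -0.71, adjusted p = 0.0187). The groups were apart in both genes, but SPT lost its call without wild type 2 or lug-3 1 (adjusted p up to 0.0553) and INO without wild type 1, wild type 3 or lug-3 2 (adjusted p up to 0.0710). ALC (0.41, adjusted p = 0.338), which acts in the fruit opening zone, and CES (0.22, adjusted p = 0.601), which acts in the transmitting tract, lay higher on every lug-3 array without a call.

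Of 6 tested petal and sepal growth genes 2 fell. BPEp, which limits petal cell size, had signals of 342, 396 and 262 in wild type and 178, 110.4 and 139 in lug-3 flowers (log2 change -1.19, adjusted p = 0.0215). NGA2, of the NGATHA family of style and lateral organ regulators, was at 60.4, 57.3 and 53.7 against 24.3, 30.7 and 29.0 (log2 change -0.86, adjusted p = 0.0163). The groups did not overlap in either gene, while BPEp lost its call without wild type 1, wild type 2, lug-3 2 or lug-3 3 (adjusted p up to 0.0931) and NGA2 without wild type 1, wild type 2 or lug-3 1 (adjusted p up to 0.0673). YAB5, a YABBY gene of the abaxial organ side, fell by 0.69, a call lost without any 1 array other than lug-3 3 (adjusted p up to 0.106).

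**Figure D3:**
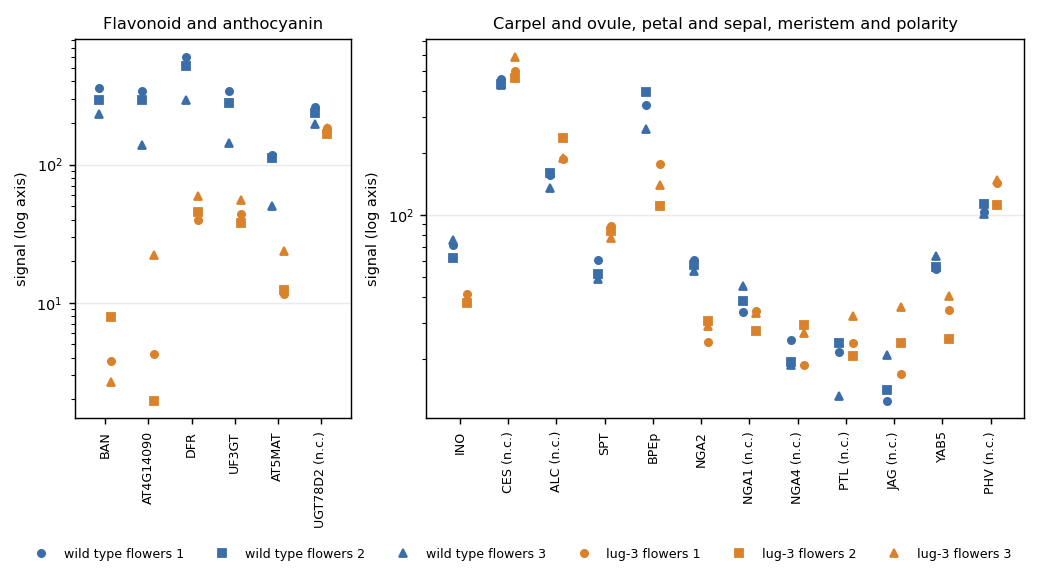
Signal (log axis) on each flower array of the 6 flavonoid and anthocyanin genes (left) and of the tested genes of carpel and ovule, of petal and sepal growth and of meristem and polarity (right; BAN is shown on the left), wild type in blue, lug-3 in orange, with circles, squares and triangles for arrays 1 to 3 and n.c. for genes not called. The 5 called pigment genes are separated by a wide gap, whereas BPEp, NGA2, INO, SPT and YAB5 differ by less than 1.2 on the log2 scale.

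Sugar transporters of the SWEET family fell in 5 of 14 cases and rose in 1, beside 6.75% lower and 5.27% higher over all tested probe sets. Among the nectary genes SWEET9, the nectary sugar exporter, was not called (840, 830 and 713 in wild type, 505, 561 and 848 in lug-3; log2 change -0.34, adjusted p = 0.357). SWEET13 went from 425, 442 and 323 to 121, 134 and 230 (log2 change -1.29, adjusted p = 0.00936) and also fell in leaves (-1.92). SWEET3 fell by 1.33 and SWEET14 by 1.34, the latter a call lost without wild type 1 (adjusted p = 0.0502). SWEET10 rose by 0.53 (356 ± 5.44 to 519 ± 66.2), a call lost without any 1 array other than lug-3 3 (adjusted p up to 0.123). Of 4 tested cation/proton exchanger genes CHX15, CHX19 and CHX20, the last known from guard cells, fell by 1.29, 1.11 and 0.92.

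Genes of cytokinin and auxin response had some of the larger falls. RR22, a response regulator of the cytokinin phosphorelay, had signals of 76.6, 66.7 and 52.1 in wild type and 1.18, 1.01 and 1.41 in lug-3 flowers (log2 change -2.98, SE 0.125), the level of leaves (1.30). RR16, an A-type response regulator induced by cytokinin, was at 297, 293 and 200 against 74.0, 71.3 and 89.0 (log2 change -1.64, adjusted p = 0.000675). These were 2 of 4 tested response regulators; ARR15 was not called (-0.64, adjusted p = 0.225).

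Of 7 tested genes of auxin synthesis and conjugation 2 fell, both encoding enzymes that join auxin to amino acids. GH3.3 had signals of 266, 232 and 231 in wild type and 74.5, 63.4 and 69.6 in lug-3 flowers (log2 change -1.70, SE 0.149, adjusted p = 3.00e-05), and GH3.17 had 281, 221 and 144 against 84.6, 98.7 and 73.6 (log2 change -1.21, adjusted p = 0.00494). Of 6 Aux/IAA repressor genes IAA31 fell by 1.85 and IAA18 rose by 0.70 (116 ± 10.4 to 194 ± 22.0), the latter a call lost without lug-3 1 (adjusted p = 0.0591). CLE41, which encodes a peptide that keeps vascular stem cells undifferentiated, rose by 0.73, the 1 call among 5 CLE genes, lost without wild type 1 (adjusted p = 0.0666). Of 31 genes on the jasmonate list 4 were tested, and none of these passed in limma (1 had an unadjusted p under 0.05). Among them THI2.1, a thionin, stood at 1110, 1208 and 1533 against 820, 888 and 781 (log2 change -0.61, adjusted p = 0.0664). JMT, the jasmonate methyltransferase, stood at 429 ± 56.1 and 486 ± 130. OPCL1, a jasmonate synthesis gene outside the list, rose from 94.7, 91.2 and 108 to 303, 249 and 177 (log2 change 1.21, adjusted p = 0.00221). Its call was not followed without single arrays.

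Protease and secondary metabolism families showed single large changes in both directions. The subtilase gene AT4G21650 rose from 76.6, 87.5 and 85.6 to 511, 612 and 393 (log2 change 2.47, adjusted p = 3.31e-05) and also rose in leaves (2.30). SBT4.13, another subtilase gene, fell from 837, 860 and 776 to 239, 258 and 228 (log2 change -1.74, adjusted p = 7.69e-05). Of 34 subtilase genes 5 fell and 1 rose, the falls including AT5G58840 (-1.82) and AT1G66210 (-1.67). The shares to set beside this count and the next are 6.75% lower and 5.27% higher over all tested probe sets. Among 20 cytochrome P450 genes 4 rose and 3 fell, and the 4 largest changes among the calls were in the CYP71B subfamily: CYP71B26 rose from 36.6, 32.3 and 33.0 to 227, 251 and 242 (log2 change 2.56), while CYP71B31, CYP71B27 and CYP71B38 fell by 1.89, 1.39 and 1.33. CYP71B38 lost its call without wild type 1 or lug-3 2 (adjusted p up to 0.0535). The list holds only P450 genes that carry a family symbol, so nothing is read from the shared subfamily.

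Of 34 tested UDP-glycosyltransferase genes 3 rose and 3 fell (8.82% each way). The shares over all tested probe sets were 5.27% higher and 6.75% lower, so the counts in this family and in the enzyme families described next are not read as a change of a family, and single members are given. Besides UF3GT the falls were UGT84A1, which acts on hydroxycinnamic acids (47.3, 61.0 and 37.9 to 1.14, 14.1 and 1.78; log2 change -2.16), and UGT85A3 (306, 312 and 232 to 83.6, 65.0 and 78.2; log2 change -1.80, adjusted p = 1.42e-05). UGT78D3, which adds arabinose to flavonols, rose by 0.95 from 21.5 ± 1.57 to 49.2 ± 6.14, a call lost without any 1 of the 6 arrays (adjusted p up to 0.0888). Without wild type 2, lug-3 1 or lug-3 2 the 3 rises of the family became 1.

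Of 25 tested serine carboxypeptidase-like genes 4 fell and 1 rose (4%). scpl21 went from 62.5, 57.4 and 33.0 to 15.4, 18.1 and 20.0 (log2 change -1.15, adjusted p = 0.00429), scpl47 and scpl38 fell by 1.31 and 1.07, and scpl33 rose by 0.76. The call of scpl47 was lost without any 1 array other than lug-3 3 (adjusted p up to 0.154), that of scpl38 without wild type 1, wild type 2 or lug-3 1 (adjusted p up to 0.0882) and that of scpl33 without wild type 1 or lug-3 2 (adjusted p up to 0.0637). Without lug-3 1 the 4 falls became 1.

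Of 13 beta-glucosidase genes with BGLU symbols 3 fell and 1 rose. BGLU15 went from 134.1, 124.5 and 122.8 to 40.4, 64.7 and 55.7 (log2 change -1.15, adjusted p = 0.000987) with no overlap. BGLU28 and BGLU36 fell by 1.45 and 0.87 and BGLU46 rose by 1.10, and each of these calls was lost without wild type 2, lug-3 1 or lug-3 2 (adjusted p up to 0.0700, 0.109 and 0.0913). BGLU36 and BGLU46 also lost theirs without wild type 1, and BGLU46 without wild type 3. Of 9 glutathione transferase genes GSTU27 fell by 0.55, and GSTU28 rose by 0.65, a call lost without any 1 array other than wild type 3 (adjusted p up to 0.117).

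Of 18 TRICHOME BIREFRINGENCE-LIKE genes, a family of wall polysaccharide acetyltransferases, 3 fell and 1 rose. TBL42 fell by 1.36 and TBL23 by 0.65, while TBL41 went from 87.8, 81.7 and 61.7 to 7.84, 26.8 and 24.2 (log2 change -1.69) and lost its call without wild type 1, wild type 2 or lug-3 1 (adjusted p up to 0.0854). TBL32 rose by 0.93 although its groups overlapped, a call lost without any 1 array other than wild type 2 (adjusted p up to 0.147). Of 16 tested AGAMOUS-LIKE MADS-box genes AGL18, a repressor of flowering, fell by 0.76, a call lost without wild type 1, wild type 2 or lug-3 3 (adjusted p up to 0.0696), beside AGL104.

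Genes of dehydration and cold protection split into members that rose and members that fell. Of 21 tested genes 2 rose (9.52%) and 8 fell (38.1%), beside 5.27% and 6.75% of all tested probe sets. The median was 0.06, close to that of all genes (0.05). The dehydrin gene LTI30 rose from 93.2, 95.0 and 76.1 to 626, 634 and 267 (log2 change 2.33, adjusted p = 0.00184), and AT2G23120, an LEA (late embryogenesis abundant) gene, from 799, 853 and 941 to 2339, 2412 and 1756 (log2 change 1.31, adjusted p = 0.000896). The groups were apart in both, with lug-3 3 the lowest lug-3 array.

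The 4 falling LEA genes named here had mean signals below 16.4 in wild type leaves. The gene with the symbol LEA (AT2G21490) went from 101, 96.0 and 67.0 to 12.9, 12.8 and 10.2 (log2 change -2.25, adjusted p = 0.00253). AT3G02480 went from 445, 389 and 348 to 63.4, 106 and 136 (log2 change -1.92), and AT5G27980 fell by 1.91. AT5G38760, an LEA family gene outside the list and among the falls ranked 11 to 25, went from 943, 757 and 675 to 93.5, 153 and 188 (log2 change -2.43, adjusted p = 2.61e-05). The lowest lug-3 array was lug-3 1 for AT3G02480 and AT5G38760, as for 346 of all 650 lower genes, and lug-3 3 for AT2G21490. The part of pollen content in these falls was not tested. With the filter on 6 arrays the 8 falls became 4.

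The rises ranked 11 to 25 by size held genes of defence and stress. WRKY53, a transcription factor of senescence and defence, had signals of 35.8, 46.6 and 36.9 in wild type and 188, 180 and 104 in lug-3 flowers (log2 change 1.75, adjusted p = 0.0365). EFR, the receptor kinase that recognises bacterial elongation factor Tu, went from 12.6, 9.44 and 21.7 to 59.6, 58.3 and 57.2 (log2 change 1.59, adjusted p = 0.0122). The groups were apart in both, yet WRKY53 lost its call without any 1 array other than lug-3 3 (adjusted p up to 0.118) and EFR without wild type 1 or 2 (adjusted p up to 0.0587). WRKY47 rose by 0.43, the second of 2 rises among 6 WRKY genes, a call lost without any 1 array other than wild type 3 (adjusted p up to 0.0970). Of the 6 changes 4 were positive and 2 negative, the lowest being -1.28 without a call. Over all tested probe sets 5.27% were higher.

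The ubiquitin ligase gene PUB19, which acts in drought and abscisic acid responses, rose from 39.3, 34.6 and 39.1 to 288, 257 and 147 (log2 change 2.33, adjusted p = 0.000376). PUB15 fell by 0.86, a call lost without wild type 1, wild type 2, lug-3 1 or lug-3 3 (adjusted p up to 0.155), and the other 7 of 9 PUB genes were not called. CML38, a calmodulin-like gene induced by wounding and stress, had 26.8, 26.5 and 26.1 in wild type and 305, 219 and 76.8 in lug-3 flowers. Its log2 change of 2.40 did not pass the threshold (adjusted p = 0.0529), and limma called none of the 7 calmodulin-like genes (3 had an unadjusted p under 0.05). HIS1-3, a drought-induced linker histone, rose from 51.5, 43.4 and 20.3 to 119, 164 and 127 in flowers (log2 change 1.70, adjusted p = 0.0178) and fell from 154 to 22.9 in leaves (log2 change -2.19). Its flower call was lost without wild type 3 or lug-3 2 (adjusted p up to 0.0731).

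The other rises of ranks 11 to 25 came from several families. AT4G28140, of the AP2/ERF transcription factor family, went from 20.6, 13.8 and 11.5 to 113, 68.4 and 73.2 (log2 change 1.98, adjusted p = 0.000175). AT5G53710 went from 37.9, 45.8 and 47.7 to 174, 190.4 and 202 (log2 change 1.93), and AT3G43740, a leucine-rich repeat protein gene, from 10.04, 7.14 and 11.8 to 49.5, 61.7 and 60.5 (log2 change 1.89, adjusted p = 2.70e-05). In AT5G53710 and AT3G43740 the lug-3 arrays were close to each other. AT5G53710 fell in leaves, from 32.8 to 17.4 in the mean (log2 change -0.68, adjusted p = 0.0492).

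AT1G11210 (1.78), AT1G65490 (1.70) and AT1G18740 (1.62) had their lowest lug-3 signal on lug-3 3, for example 240.0 and 276 against 102 for AT1G11210. That array was the lowest of its group for 9 of these 15 genes. AT4G15260, a glycosyltransferase gene, rose by 1.75 in flowers and 2.09 in leaves. AT1G15010 rose by 1.68, AT1G51090, a heavy-metal domain gene, by 1.68, AT3G53980, a lipid transfer superfamily gene, by 1.63, AT4G00910 by 1.58 and AT2G36220 by 1.99. AT2G36220 lost its call without any 1 array other than lug-3 3 (adjusted p up to 0.149) and AT1G18740 without lug-3 1 or 2 (adjusted p up to 0.0614).

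The falls of ranks 11 to 25 had mean signals below 16.4 in wild type leaves, except HTB11 (149) and AT5G09370 (19.5). AT5G62750 went from 348, 321 and 199 to 24.0, 36.2 and 40.4 (log2 change -2.82, adjusted p = 6.78e-06) and AT3G01250 from 419, 369 and 248 to 28.6, 44.4 and 58.6 (log2 change -2.78, adjusted p = 1.35e-05). Their mean signals in wild type leaves were 0.473 and 0.424. AT3G52620 and AT1G63060 fell by 2.77 and 2.76, AT1G52680 by 2.60, and AT3G02670, a glycine-rich protein gene, by 2.57. AT3G14520, a terpene synthase gene, went from 96.1, 85.6 and 70.8 to 9.21, 14.3 and 2.38 (log2 change -2.53). Of the 15 genes wild type 3 was the lowest wild type array for all 15, and lug-3 1 the lowest lug-3 array for 11.

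**Figure D4:**
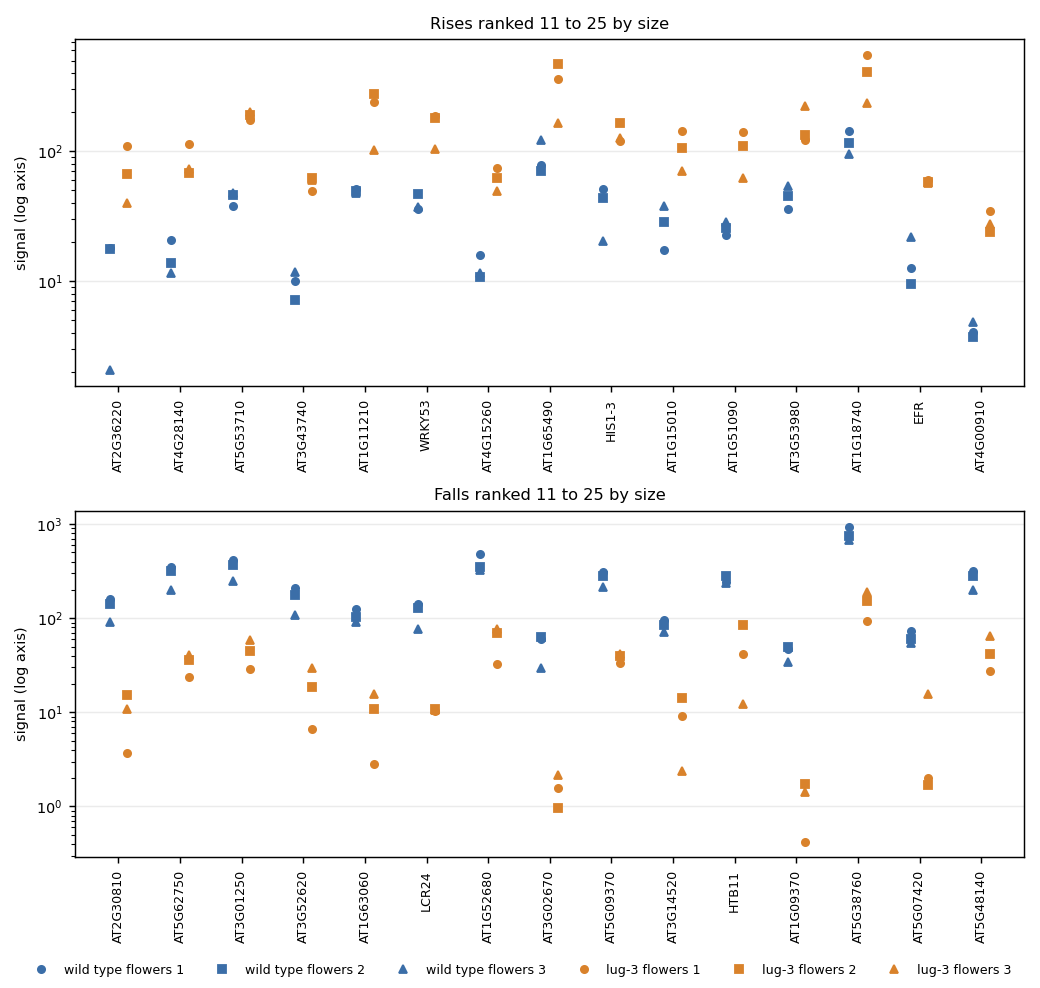
Signal (log axis) on each flower array of the 15 genes ranked 11 to 25 by size of change among rises (top) and falls (bottom), wild type in blue and lug-3 in orange, with circles, squares and triangles for arrays 1 to 3. The groups are apart in all 30 genes by the rule of choice, the lug-3 3 triangle is the lowest orange point for 9 of 15 rises, and the wild type 3 triangle is the lowest blue point for 15 of 15 falls.

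Genes of basic cell functions changed little, with exceptions. In limma none of 11 nuclear photosynthesis genes passed, although all changes were positive (median 0.27, 6 with an unadjusted p under 0.05); PSAN, a photosystem I subunit, stood at 603, 680.5 and 963 against 1127, 1243 and 904 (log2 change 0.56, adjusted p = 0.0611). Of 69 plastid-encoded genes psbF rose by 0.50, a call lost without any 1 of the 6 arrays (adjusted p up to 0.187), and 46 changes were positive (median 0.09). None of 8 proteasome, 6 heat shock, 11 ubiquitin-conjugating or 14 IQD genes passed in limma (1, 0, 1 and 1 with an unadjusted p under 0.05).

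Most cytosolic ribosomal protein genes had small negative changes: 105 of 115 changes were negative (median -0.18), 6 passed and 109 did not. Their summed signal was 107847 to 116419 in wild type and 96190 to 100209 in lug-3 flowers. On leaf arrays the sum was 43723 to 47413 in wild type and 63922 to 78396 in lug-3. The change in flowers differed from that in leaves for 93 of the 115 genes (limma interaction, adjusted p below 0.05), beside 23% of all tested probe sets. The largest falls were in members with little leaf signal: AT5G40040 went from 80.4, 82.5 and 87.0 to 12.8, 21.3 and 29.2 (log2 change -1.69, adjusted p = 0.000273), AT5G09500 from 85.9, 99.3 and 122 to 21.5, 28.2 and 37.0 (log2 change -1.59), and AT5G24510 fell by 1.20, a call lost without wild type 1, wild type 2 or lug-3 2 (adjusted p up to 0.0655). AT3G44590 fell by 0.71 in flowers and rose by 1.43 in leaves. Without wild type 1, wild type 2 or lug-3 2 the 6 falls became 3, and with array weights they became 28.

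Of 13 tested histone genes HTB11, a histone H2B gene, went from 240, 283 and 235 to 41.3, 85.2 and 12.2 (log2 change -2.52, adjusted p = 0.00196), beside MGH3 and HIS1-3, and 12 of the 13 changes were negative. Of 7 tubulin genes 3 fell and all 7 changes were negative: TUA6 went from 1525, 1365 and 1199 to 781, 662 and 683 (log2 change -0.93, adjusted p = 0.00235), TUA1, a pollen-expressed alpha-tubulin, fell by 0.73 and TUB7 by 0.59. TUB7 lost its call without any 1 of the 6 arrays (adjusted p up to 0.0900) and was higher in lug-3 leaves (1.13). Of 9 ATG8 autophagy genes ATG8H fell by 1.03 and ATG8E by 0.94, the latter a call lost without any 1 array other than wild type 3 (adjusted p up to 0.177). Of 13 tetraspanin genes TET15 (41.4, 38.6 and 52.6 to 15.3, 1.503 and 6.85) and TET11 fell by 1.80 and 1.07.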

How the data were processed

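RNA from 12 samples was measured on 1-colour arrays, and per the labels' protocols each sample was a pool of 20 plants. The values are probe set intensity on a linear scale (signal), as deposited by the authors; the submitters' processing notes list MAS5 and GCOS without versions, and the labels state no further settings. With 2% trimmed at either end, the mean signal of each array was 100.0, so no scaling was added. The number of arrays limits the precision.

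Of 22746 probe sets other than the 64 controls, 13513 had 1 gene in the platform annotation, 503 had several and 8730 are unnamed here. Symbols were updated for 13436 through a RefSeq gene table (assembly TAIR10.1). Values were taken as log2(signal + 8), which understates changes of weak genes. Testing required a signal above 16.4, the 30th percentile over the pooled arrays, on 3 or more of 12 arrays. With limma 3.58.1 (R 4.3.3), 1 linear model with 4 group means used all 12 arrays (8 residual and 3.79 prior degrees of freedom), and calls were made at a Benjamini-Hochberg adjusted p below 0.05 over all 17877 tested probe sets. Every adjusted p comes from limma. The fit was tested on simulated data. A gene with several probe sets is represented by the one of highest mean signal.

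The members and gene lists were chosen with earlier results of these data known. Lists planned by keyword matched nothing, since the annotation holds no gene descriptions, and were replaced by lists of loci or symbol stems. A list by symbol stem leaves out family members whose symbol lacks the stem, so its counts can cover a part of the family only. Named genes are ranks 11 to 25 each way among calls whose groups do not overlap, up to 4 called members of each list with the largest change, members of lists with at most 6 tested genes, and SEU. AT1G48100, ATPMEPCRB, AT2G23120, AT3G01270, ANX2, PLIM2a, ACT12, AGL65, AGL66, OPCL1 and the tapetum genes after SWEET8 fall outside this rule and were named after their values were seen. Same-numbered flower arrays did not deviate together (correlations of -0.03, -0.06 and 0.02), so the numbers do not pair the samples.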

Additional observations from a re-analysis of the deposited data

Results flagged for a closer look

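For 109 of the 163 genes named above, OPCL1 not counted, the change in flowers differed from the change in leaves (limma interaction, adjusted p below 0.05). Most of these genes were named for the size of their flower change, so the count is a description and nothing is read from it. The difference, flowers minus leaves on the log2 scale, was negative for 89 and positive for 20 of them, and in 58 both genotypes had mean leaf signals below the floor of 16.4. Leaves were taken at another growth stage, so tissue and stage cannot be told apart.

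Among the tapetum, pollen and pollen tube genes the difference was -2.04 for AT1G75920, -1.35 for ATA27, -1.10 for SHT, -1.63 for SWEET8, -1.52 for AT5G07230, -1.41 for AT5G62080, -1.94 for AT1G33430, -1.33 for AT1G75900, -2.53 for AT5G07420, -2.39 for AT5G48140, -1.71 for AT5G15110, -2.40 for AT59, -1.79 for PLIM2a, -2.03 for AT2G02720, -2.02 for ANX2, -1.69 for AT3G01270, -1.41 for MGH3, -1.81 for AT5G07430 and -1.55 for AGL104. Among the wall and pectin genes the difference was -2.37 for AT3G17060, -1.92 for AT3G05610, -1.60 for ATPMEPCRB, -4.13 for AT4G15750, -2.45 for AT1G09370, -1.86 for AT2G47340, -1.71 for AT1G10770, -3.61 for EXPA8, -1.74 for EXPB5, -2.22 for XTH16 and -1.12 for XTH32. Among the lipid and peptide genes the difference was -1.17 for AT1G73610, -1.65 for AT5G03590, -3.46 for AT1G29660, -2.18 for AT5G09370, -2.06 for AT5G38195, -3.50 for AT2G30810, -2.36 for AT2G14900, -0.95 for AT5G59845, -2.29 for RALFL25, -1.11 for RALFL18, -2.69 for LCR24 and -1.76 for LCR72. Among the pigment, organ and hormone genes the difference was -4.50 for BAN, -1.31 for AT5MAT, 0.71 for SPT, -0.90 for YAB5, 0.82 for SWEET10, -1.14 for SWEET3, -1.04 for CHX15, -0.93 for CHX19, -3.04 for RR22, -1.16 for RR16, -1.58 for ARR15, -2.05 for GH3.3, -1.77 for GH3.17, -1.47 for IAA31, 0.97 for IAA18 and -1.38 for THI2.1. Among the protease and secondary metabolism genes the difference was -1.86 for AT5G58840, -1.86 for SBT4.13, -1.63 for AT1G66210, 2.82 for CYP71B26, -1.49 for CYP71B31, -1.06 for CYP71B27, -1.31 for CYP71B38, -2.14 for UGT84A1, -1.77 for UGT85A3 and 1.29 for UGT78D3. Among the stress and defence genes and the other ranked genes the difference was 2.16 for LTI30, 1.16 for AT2G23120, -1.82 for LEA, -1.71 for AT5G27980, -2.38 for AT5G38760, 3.89 for HIS1-3, 2.25 for PUB19, -1.28 for PUB15, 0.99 for WRKY47, 2.02 for AT4G28140, 2.61 for AT5G53710, 1.28 for AT3G43740, 2.83 for AT1G11210, 1.87 for AT1G65490, 2.20 for AT1G51090, 2.11 for AT3G53980, 1.78 for AT4G00910, -2.83 for AT5G62750, -2.85 for AT3G01250, -2.71 for AT3G52620, -2.71 for AT1G63060, -2.48 for AT1G52680, -2.45 for AT3G02670 and -2.50 for AT3G14520. Among the genes of basic cell functions the difference was -2.17 for AT5G40040, -1.56 for AT5G09500, -1.50 for AT5G24510, -2.14 for AT3G44590, -2.43 for HTB11, -0.98 for TUA6, -0.69 for TUA1, -1.72 for TUB7 and -1.79 for TET15. Among the carboxypeptidase, glucosidase, transferase and TBL genes it was -1.68 for BGLU15, -1.76 for BGLU28, 1.56 for BGLU46, -0.57 for GSTU27, -2.22 for TBL41, -1.26 for TBL42, -0.96 for scpl21 and 0.83 for scpl33.

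EXPA8, AT1G29660, AT3G44590, TUB7, XTH16, AGL104 and BGLU15 were lower in lug-3 flowers and higher in lug-3 leaves, each past the threshold in both tissues, and HIS1-3, WRKY47 and AT5G53710 were higher in flowers and lower in leaves. The leaf means of AGL104 (1.88 and 11.5) both lay below the floor.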

How the results depend on the processing

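No probe set called in the flower comparison changed direction in any of the 17 alternatives. The count of 2150 calls (943 higher, 1207 lower) was within 1.5 times under quantile normalization, median centring, pseudocounts of 1 and 32, both filters, flower arrays only, trend and robust priors and the GAPDH covariate, and it became 5059 (2769 higher, 2290 lower) with array weights. Leaving out 1 flower array at a time gave 1151 to 1872 calls, 412 to 792 higher and 739 to 1080 lower. With the replicate number as a block, although the numbers were not taken as pairs, 2006 probe sets were called, 1868 of them among the 2150. Of 146 named genes with a call, OPCL1 not counted, 101 kept it without each array in turn, and 95 kept it under all alternatives that tested them. A pseudocount of 1 ended 35 calls, the replicate block 10 and the GAPDH covariate 8. When a 2-fold change was also required, the falls were 18 in the pollen, 7 in the tapetum, 5 in the pigment, 9 in the methylesterase and 13 in the inhibitor list. Where a signal lies below the floor, the size of a change depends on the pseudocount; probe sets unnamed here were not described.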
